A study of Danio rerio with 6 samples.

Results

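Acetylation of histone H3 at lysine 9 (H3K9ac) was compared between regenerating zebrafish hearts, taken 9 days after the tip of the ventricle was cut off (9 dpa), and uncut hearts. Both groups were heart tissue of fish aged 1 to 1.5 years, precipitated with the same abcam antibody against H3K9ac, and neither the strain nor the number of hearts behind a library is given in the sources used here. The 9 dpa group had 1 library and the uncut group had 1 library, 2 of the 6 libraries of a series that also mapped H3K9ac at 6 dpa and trimethylation of the same residue (H3K9me3) at all 3 times. The members are all peaks of the 2 H3K9ac lists after repeated rows were dropped, 17223 peaks at 9 dpa and 16264 in uncut hearts, of 66487 peaks in the 6 lists. With 1 library a side no test was possible. Each difference is therefore one between 2 libraries with no replicate check, and its interval, where one is given, covers counting error only.

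H3K9ac is placed by acetyltransferases of the Gcn5/PCAF type and removed by histone deacetylases. It sits on the nucleosomes that flank the start sites of active genes and on active enhancers, where acetylated lysine loosens chromatin and is bound by reader proteins. Zebrafish regrow an amputated ventricle tip from dividing heart muscle cells, after the wound has filled with a clot and taken up inflammatory, epicardial and endocardial cells.

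Library read totals were not analysed here. The authors' tag counts (reads inside a peak) summed to 2206341 at 9 dpa and 1902151 in uncut hearts, and the lists covered 28.5 Mb at 9 dpa and 25.8 Mb in uncut hearts. The most frequent local background was 15.01 reads per kb at 9 dpa and 14.63 in uncut hearts, a log2 ratio of 0.04. Of 5 heart muscle markers 2 were annotated to peaks, myl7 and tnnt2a, and both carried a promoter peak in each list. Of 4 red cell markers 3 had promoter peaks in both lists and 1 at 9 dpa alone. None of the 4 leukocyte markers had a promoter peak, and none of the 10 marker genes of liver, skeletal muscle and nerve was annotated to any peak. In a wider list of 26 genes of other tissues 3 were annotated and 2 had a promoter peak, the keratin genes krt8 (266 tags at 9 dpa, 241 in uncut hearts) and krt4 (63 tags at 9 dpa alone).

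Most promoters with H3K9ac had it in both libraries, and sites inside genes were shared less. A peak counted as a promoter peak when it touched the 2 kb on either side of a transcription start site (TSS). Of 8007 promoter peaks at 9 dpa 93.7% overlapped an uncut peak (Wilson 95% interval 93.2 to 94.3), and of 7750 promoter peaks in uncut hearts 96.9% overlapped a 9 dpa peak (96.5 to 97.2). Of 9216 non-promoter peaks at 9 dpa 73.5% were shared (72.6 to 74.4), and of 8514 in uncut hearts 79.7% were shared (78.9 to 80.6). Most of these had no gene in the authors' annotation, 7581 at 9 dpa and 7135 in uncut hearts. Of such unannotated peaks 75.6% were shared at 9 dpa and 80.7% in uncut hearts. Intronic peaks had the smallest shares, 60.9% of 1205 at 9 dpa and 72.3% of 1024 in uncut hearts, followed by exonic peaks with 63.8% of 268 at 9 dpa and 75.9% of 212 in uncut hearts. These peaks were also smaller. Median tags at 9 dpa were 57 for intronic, 71.5 for exonic and 131 for promoter peaks. In uncut hearts they were 59 for intronic, 68.5 for exonic and 115 for promoter peaks. The part of peak size in the shares by place was not tested. In whole heart tissue, fewer cells that carry the mark and less acetylation per cell cannot be told apart.

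**Figure D1:**
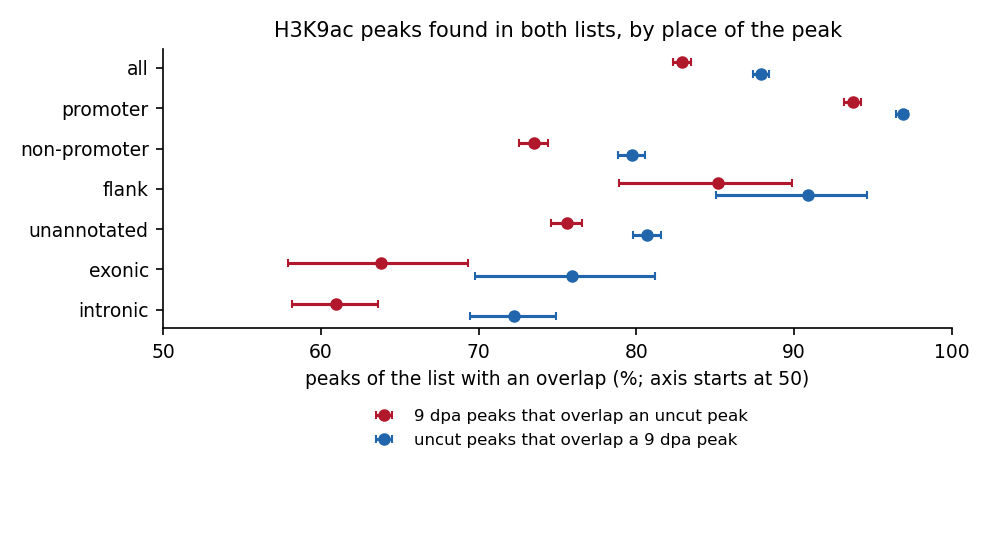
Share of H3K9ac peaks that overlap a peak of the other list by at least 1 bp, by place of the peak (flank: tied to a gene by the authors' annotation but outside its exons, introns and the promoter window; unannotated: no gene given), with Wilson 95% intervals that cover counting error only. Promoter peaks lie at 93.7% at 9 dpa and 96.9% in uncut hearts, intronic peaks at 60.9% at 9 dpa and 72.3% in uncut hearts.

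Peaks without a partner were small. The authors' score is 10 times the negative log10 of a peak's p, and both lists start at a score of 50. At 9 dpa the median unpaired peak had 47 tags and a score of 64.3, against 119 tags and 195 for paired peaks. In uncut hearts the median unpaired peak had 43 tags and a score of 62.8, against 103 tags and 163 for paired peaks.

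Joining overlapping peaks gave 19145 loci, of which 14232 held a peak of both libraries, 2945 a 9 dpa peak alone and 1968 an uncut peak alone. Of the shared loci 7486 lay at promoters and 6746 elsewhere. In position they differed little: 14132 shared loci had 1 peak in each list, and summits lay a median of 50 bp apart, within 200 bp at 83.5% of loci.

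At shared loci the 9 dpa library had slightly more tags over slightly longer peaks. The median locus had 119 tags at 9 dpa and 103 in uncut hearts, a median log2 ratio of 0.20 (order-statistic 95% interval 0.19 to 0.20), and 73.6% of loci were above 0. Median length was 1611 bp at 9 dpa and 1528 bp in uncut hearts (log2 ratio 0.06). Median density was 71.7 tags per kb at 9 dpa and 65.5 in uncut hearts (log2 ratio 0.12). The ratio was a little larger at promoters, with medians of 0.22 in tags and 0.14 in tags per kb, than at other loci, with 0.17 in tags and 0.09 in tags per kb.

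A measure free of called length was recovered from the lists. The score, tags and length of a peak together give the local read density it was scored against. Outside the library-wide background, 93.3% of these densities at 9 dpa and 92.4% in uncut hearts were whole numbers of reads in 10 kb within 0.02, and in no peak was that number below the peak's own tags, so the window holds the peak itself. At the 13173 shared loci with such a count in both lists the median was 268 reads in 10 kb at 9 dpa and 254 in uncut hearts (log2 ratio 0.09). Outside the peaks the same windows held a median of 16.6 reads per kb at 9 dpa and 16.8 in uncut hearts. The windows thus differed inside the called peaks and hardly outside them. This split, unlike the 10-kb count, rests on the called length in each list, so a longer call moves reads from outside to inside.

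From here on, a scaled ratio is 9 dpa over uncut on the log2 scale minus the median of all shared loci for the same measure, and past 1.5-fold means a scaled ratio beyond 0.58 in either direction, a rule of size and not a test. Scaling to the library background in place of the median adds 0.16 to every scaled tag ratio, 0.08 to every one per kb and 0.05 to every one of the 10-kb reads, so a tag ratio between -0.16 and 0 lies above 0 under that scaling. Scaled tag ratios had an SD of 0.33 over all shared loci, where counting alone gives 0.21. Ratios of the 10-kb reads had an SD of 0.16, where counting alone gives 0.13. The exact counting interval of the tag ratio lay clear of the median at 18.5% of loci, 1322 above and 1317 below.

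Few shared loci were past 1.5-fold, and fewer in density than in tags. In tags, 482 of 14232 loci (3.39%) were higher at 9 dpa and 601 (4.22%) lower. At promoters these were 199 of 7486 higher (2.66%) and 177 lower (2.36%), and elsewhere 283 of 6746 higher (4.2%) and 424 lower (6.29%). Scaled to the background, the promoter counts were 514 higher and 72 lower and the non-promoter counts 560 higher and 200 lower, so the balance of the directions depends on the scaling.

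In tags per kb, 65 loci (0.457%) were higher at 9 dpa and 121 (0.85%) lower. At promoters these were 37 higher (0.494%) and 31 lower (0.414%), and elsewhere 28 higher (0.415%) and 90 lower (1.33%); with background scaling they were 93 higher and 11 lower at promoters and 66 higher and 46 lower elsewhere. In 10-kb reads, 5 of 13173 loci (0.038%) were higher and 6 (0.0455%) lower. Of these, 1 higher (0.0137%) and 2 lower (0.0275%) lay at promoters and 4 higher (0.0679%) and 4 lower (0.0679%) elsewhere. The 10-kb window also holds the reads outside the peak, which hardly differed. A peak must therefore differ by more than 1.5-fold for its window to do so, and these counts cannot be set against those in tags or density.

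Differences in tags went partly with differences in the called length of the peak. Over all shared loci the scaled tag ratio had a Pearson r of 0.74 with the scaled length ratio and of 0.57 with that of tags per kb, across loci of the same libraries. Up to a constant the tag ratio is the sum of the other ratios, so positive r values are partly built in. The 199 promoter loci past 1.5-fold higher had a median length of 1978 bp at 9 dpa and 1273 bp in uncut hearts. Of these, 82 were also past 1.5-fold in length and 15 in tags per kb. In 10-kb reads 164 of the 187 with a value were above 0, with a median of 0.20. The 177 lower ones had a median length of 1294 bp at 9 dpa and 1652 bp in uncut hearts. Of these, 38 were also past 1.5-fold in length and 18 in tags per kb. In 10-kb reads 163 of 168 were below 0, with a median of -0.25. The 10-kb window holds the tags by which these loci were picked. Its agreement in sign, in both directions, is thus partly built in and no separate check.

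**Figure D2:**
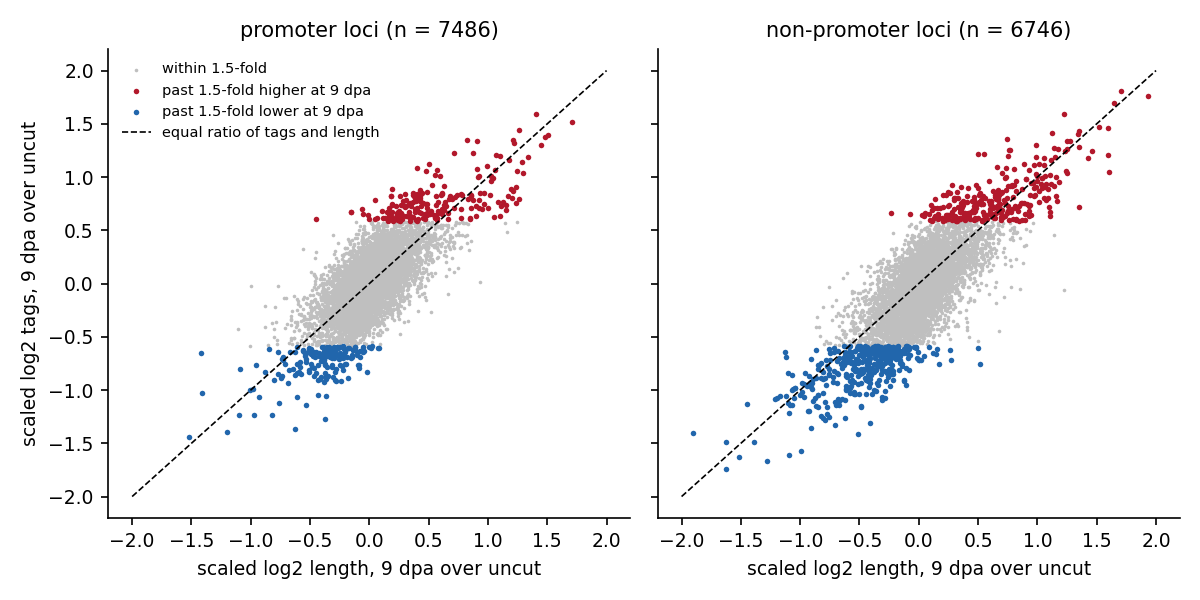
Scaled log2 ratio of tags (vertical) against scaled log2 ratio of peak length (horizontal), 9 dpa over uncut, for 7486 promoter and 6746 non-promoter loci; each point is 1 locus. Ratios of tags and length lie along a common slope with wide scatter, with a Pearson r of 0.74 over all loci; of the 482 loci past 1.5-fold higher in tags 244 are also past it in length, and of the 601 lower ones 159.

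Small loci were more scattered than large ones. Among the 3558 loci with the fewest tags the SD of the scaled tag ratio was 0.40, and 5.26% were past 1.5-fold higher and 9.22% lower. Among the 3557 with the most tags the SD was 0.25, and 2.11% were higher and 0.872% lower.

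The promoter loci that were most clearly higher at 9 dpa, ranked by the near bound of the counting interval of the tag ratio among loci whose density moved the same way, were led by prox1a, hic1 and klf1. The locus of prox1a, a homeobox factor known for lymphatic and liver development (danRer10 chromosome 17, 32910997 to 32914855), had 217 tags over 3859 bp at 9 dpa and 63 tags over 1394 bp in uncut hearts. Its scaled ratio was 1.59 in tags (1.18 to 2.02), 0.20 in tags per kb and 0.34 in 10-kb reads (314 at 9 dpa, 234 in uncut hearts). The called peak was thus longer at 9 dpa, with a small difference in density, and the 10-kb reads differed less than the tags. Whether the acetylated stretch itself was longer was not tested.

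The locus of klf1, the red cell factor that activates globin genes (chromosome 6, 7890650 to 7896281), had 499 tags over 5553 bp at 9 dpa and 174 tags over 2286 bp in uncut hearts. Its scaled ratio was 1.32 in tags (1.07 to 1.58), 0.12 in tags per kb and 0.30 in 10-kb reads (640 at 9 dpa, 490 in uncut hearts). The locus of hic1, a transcriptional repressor (chromosome 15, 25745386 to 25750283), had 349 tags over 4898 bp at 9 dpa and 112 tags over 1962 bp in uncut hearts (1.44; 0.20 per kb). Its summits lay 2296 bp apart, so no ratio of 10-kb reads was taken. The called peaks of prox1a, klf1 and hic1 were at least 3859 bp long at 9 dpa and at most 2286 bp in uncut hearts.

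The locus of f3b, a gene of tissue factor, the trigger of blood clotting (chromosome 2, 15431648 to 15434208), was higher in every measure. It had 185 tags over 2561 bp at 9 dpa and 64 tags over 1312 bp in uncut hearts, and 333 reads in 10 kb at 9 dpa and 219 in uncut hearts. The scaled ratios were 1.34 in tags (0.92 to 1.77), 0.45 in tags per kb and 0.52 in 10-kb reads. The locus of zgc:194659 was alike, with 178 tags at 9 dpa and 61 in uncut hearts (1.35; 0.54 per kb; 0.51 in 10-kb reads).

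The remaining higher loci were zgc:172143 (125 tags at 9 dpa, 43 in uncut hearts), znhit1, a zinc finger HIT protein of chromatin remodelling (156 tags at 9 dpa, 59 in uncut hearts), and cyp1b1, a cytochrome P450 induced through the aryl hydrocarbon receptor (139 tags at 9 dpa, 53 in uncut hearts). Their densities differed little, with scaled ratios of 0.11 to 0.15 per kb. At cyp1b1 the summits lay 1088 bp apart.

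**Figure D3:**
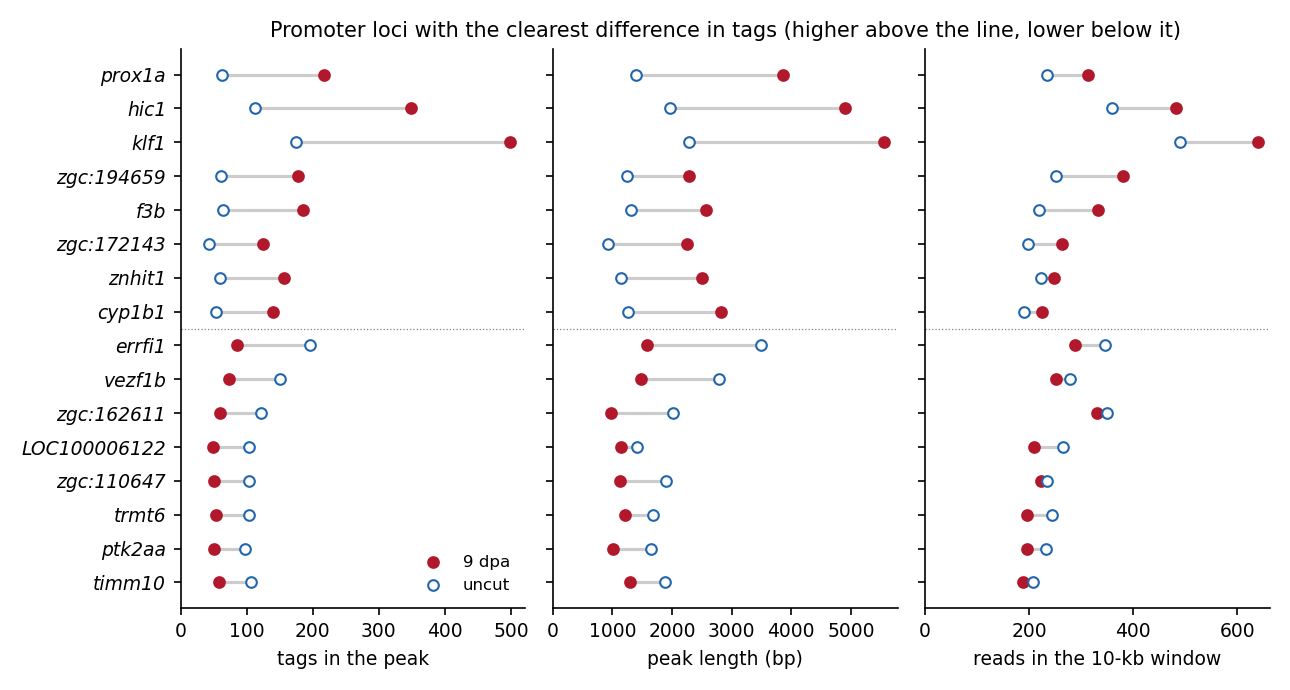
Tags in the peak, peak length in bp and reads in the 10-kb window at 9 dpa (filled) and in uncut hearts (open), 1 library each, for the 8 promoter loci ranked highest (above the dotted line) and the 8 ranked lowest (below it) by the counting interval of their tag ratio. Only loci with a gene symbol whose tags per kb moved the same way as their tags were ranked. For prox1a the tags are 217 at 9 dpa and 63 in uncut hearts, while the 10-kb reads are 314 at 9 dpa and 234 in uncut hearts.

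Among the promoter loci most clearly lower at 9 dpa, the first was errfi1, a feedback inhibitor of epidermal growth factor receptor signalling (chromosome 11, 40567038 to 40570525). It had 85 tags over 1579 bp at 9 dpa and 195 tags over 3488 bp in uncut hearts, a scaled ratio of -1.39 (-1.78 to -1.02), with -0.17 per kb and -0.34 in 10-kb reads. The locus of vezf1b, a zinc finger gene of a family known in mammals for vessel development, had 73 tags at 9 dpa and 150 in uncut hearts (-1.24; -0.24 per kb). It also overlapped an H3K9me3 peak at 9 dpa and none in uncut hearts, and the 15 other loci of these ranks overlapped none at either time. The H3K9me3 libraries differed in background, with 9.24 reads per kb at 9 dpa and 4.1 in uncut hearts. An H3K9me3 peak at 9 dpa alone is thus no measured gain of the mark, and the part of depth in it was not tested.

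A few lower loci differed in density too. The shared promoter of LOC100006122 and iqcb1, a gene of the primary cilium (chromosome 6, 9000103 to 9001531), had 49 tags over 1139 bp at 9 dpa and 103 tags over 1411 bp in uncut hearts (-1.27 in tags, -0.88 per kb, -0.42 in 10-kb reads). The locus of trmt6, a subunit of a tRNA methyltransferase, had 54 tags at 9 dpa and 104 in uncut hearts (-1.14; -0.59 per kb). The locus of ptk2aa, a gene of focal adhesion kinase, had 51 tags at 9 dpa and 97 in uncut hearts (-1.12; -0.34 per kb). The remaining ones, zgc:162611, zgc:110647 and timm10, a mitochondrial import chaperone, had 50 to 59 tags at 9 dpa and 103 to 121 in uncut hearts, with density ratios of -0.12 at zgc:162611, -0.40 at zgc:110647 and -0.44 at timm10.

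Away from promoters, the largest density ratios among the ranked higher loci lay inside trap1 and rgs3a. The intronic locus of trap1, a mitochondrial chaperone (chromosome 3, 9622676 to 9624654), had 154 tags at 9 dpa and 58 in uncut hearts, with scaled ratios of 1.21 in tags (0.77 to 1.67), 0.73 per kb and 0.51 in 10-kb reads. The exonic locus of rgs3a, a regulator of G protein signalling, had 136 tags at 9 dpa and 51 in uncut hearts (1.22; 0.69 per kb; 0.21 in 10-kb reads). Intronic loci of add3a, an adducin of the membrane skeleton (211 tags at 9 dpa, 85 in uncut hearts), lama2, a laminin chain of basement membranes (97 tags at 9 dpa, 35 in uncut hearts), and cyth1b, an exchange factor of ARF proteins (174 tags at 9 dpa, 76 in uncut hearts), had density ratios of 0.15 to 0.28.

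The ranked lower loci away from promoters began with an intron of scn12ab, a sodium channel gene (chromosome 24, 40810986 to 40813407). It had 38 tags over 1041 bp at 9 dpa and 105 tags over 2422 bp in uncut hearts (-1.66, -2.24 to -1.11; -0.37 per kb). It lay 135344 bp from the start site, and the other intronic loci of the gene had no common direction. Another had 110 tags at 9 dpa and 91 in uncut hearts (0.08). Further ones stood in the 9 dpa list alone (29 tags) or in the uncut list alone (41 tags). The exonic locus of tfr2, a transferrin receptor, had 38 tags at 9 dpa and 82 in uncut hearts (-1.31; -0.88 per kb). The intronic locus of smap1, which acts on ARF proteins, had 53 tags at 9 dpa and 123 in uncut hearts (-1.41; -0.88 per kb), with 189 reads in 10 kb at 9 dpa and 300 in uncut hearts (-0.76).

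The loci of smap1, tfr2 and lama2 overlapped H3K9me3 peaks both at 9 dpa and in uncut hearts. The other ranked lower loci were an intron of prom1a, a gene of the membrane protein prominin (47 tags at 9 dpa, 100 in uncut hearts, but 205 reads in 10 kb at 9 dpa and 203 in uncut hearts), and a locus at an exon and the flank of and3, a gene of the fin's actinotrichia (87 tags at 9 dpa, 157 in uncut hearts). The density ratio of and3 was -0.03, and 0.05 with background scaling.

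Lists of genes for heart cell types and repair were then read at their shared promoter loci, beside all 7486 promoter loci, of which 2.66% were past 1.5-fold higher and 2.36% lower and whose median scaled ratios were 0.02 in tags, 0.03 in tags per kb and 0.01 in 10-kb reads. Of all 8229 promoter loci, shared or not, 6.09% had a peak in the 9 dpa list alone and 2.94% in the uncut list alone. Counts and medians of the lists are descriptions of these libraries. With background scaling, where 514 of all 7486 were higher and 72 lower, the counts of higher loci became 3 for the red cell, growth factor, immediate early and stress lists, 2 for the cardiac factor, replication, H3K9 enzyme and sarcomere lists and 1 for the matrix list, and the other lists kept theirs. Lower loci were then 1 in the sarcomere list, 1 in the calcium list and 0 in the others.

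Contractile genes were mostly below the median of all shared loci. Of 32 listed genes 17 had a promoter peak, 14 of them in both lists, and of these 0 were past 1.5-fold higher and 3 lower. With background scaling these counts were 2 higher (tnnc1a and mybpc3) and 1 lower (tpm4a). The medians were -0.22 in tags, -0.14 in tags per kb and -0.18 in 10-kb reads, and -0.06 in tags with background scaling. In 10-kb reads 3 of 14 were above 0, where 52.5% of all promoter loci were.

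The lowest were tpm4a, a tropomyosin gene, with 90 tags over 1531 bp at 9 dpa and 157 over 2952 bp in uncut hearts (-0.999, but 0.03 per kb), and desma, the muscle intermediate filament gene, with 43 tags at 9 dpa and 60 in uncut hearts (-0.68). Also past 1.5-fold lower was the myosin light chain gene myl7, with 67 tags at 9 dpa and 89 in uncut hearts (-0.61; -0.42 per kb). The highest were tnnc1a, cardiac troponin C (102 tags at 9 dpa, 60 in uncut hearts; 0.57), and mybpc3, myosin-binding protein C (104 tags at 9 dpa, 63 in uncut hearts; 0.53, but 0.03 per kb). Promoter peaks of the troponin gene tnni1b (44 tags) and the methyltransferase gene smyd1b (38 tags) stood in the 9 dpa list alone, and that of the myoglobin gene mb in the uncut list alone.

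The 3 shared promoters of calcium handling and conduction genes were below 0 in each measure, and 1 was past 1.5-fold lower. For atp2a2a, the calcium pump of the sarcoplasmic reticulum, there were 99 tags at 9 dpa and 156 in uncut hearts (-0.85; -0.26 per kb), and 250 reads in 10 kb at 9 dpa and 332 in uncut hearts (-0.50). Its paralog atp2a2b had 122 tags at 9 dpa and 148 in uncut hearts (-0.47), and the potassium channel gene kcnh6a had 103 tags at 9 dpa and 113 in uncut hearts (-0.33). The median was -0.47 in tags and -0.32 with background scaling. Of 19 listed genes 6 had a promoter peak: the calcium store gene casq2 (64 tags) and the gap junction gene cx43 (56 tags) had it in the 9 dpa list alone, and jph2, a gene of membrane junctions in muscle (49 tags), in the uncut list alone.

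The cardiac transcription factors had no common direction. Of 25 listed genes 16 had a promoter peak, 14 in both lists, of which 1 was past 1.5-fold higher and 0 lower, with a median of 0.05 in tags and -0.14 in tags per kb. The early heart factor gata5 had 542 tags over 6188 bp at 9 dpa and 292 over 3076 bp in uncut hearts (0.70, but -0.24 per kb). The muscle factor mef2ca had 50 tags at 9 dpa and 32 in uncut hearts (0.45, -0.22 to 1.14). At the low end gata4 had 101 tags at 9 dpa and 117 in uncut hearts (-0.41), and tbx20 had 170 tags at 9 dpa and 189 in uncut hearts (-0.35, but 0.03 per kb). The homeobox gene meis1b had a peak in the 9 dpa list alone, and isl1, a gene of cardiac progenitors, in the uncut list alone (86 tags, score 121).

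Red cell genes lay above the median in tags, density and fixed windows. Of 34 listed genes 21 had a promoter peak, and the 18 with it in both lists shared 16 loci, of which 2 were past 1.5-fold higher and 0 lower. The medians were 0.26 in tags, 0.23 in tags per kb and 0.25 in 10-kb reads. Above 0 were 12 of 16 in tags, 15 of 16 in tags per kb and 14 of 15 in 10-kb reads, where 53.5%, 55.0% and 52.5% of all promoter loci were. The counting interval lay above the median at 8 of 16, against 9.85% of all promoter loci, and below it at 0, against 6.97%. These shares are not like ones, since the interval narrows as tags rise. The 16 loci summed to 4158 tags at 9 dpa, and the median shared promoter locus had 136. The loci past 1.5-fold were klf1 and epb41b, a gene of the membrane skeleton protein 4.1 (221 tags at 9 dpa, 128 in uncut hearts; 0.59, and 0.34 in 10-kb reads).

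Several red cell genes, named after their values were seen, differed in density, and rhag and slc4a1a did so over peaks of nearly equal length. The Rhesus glycoprotein gene rhag had 175 tags over 2364 bp at 9 dpa and 116 over 2372 bp in uncut hearts (0.40; 0.48 per kb), and 322 reads in 10 kb at 9 dpa and 220 in uncut hearts (0.46). The anion exchanger gene slc4a1a had 322 tags over 3402 bp at 9 dpa and 222 over 3429 bp in uncut hearts (0.34; 0.43 per kb; 0.36 in 10-kb reads). For alas2, the first enzyme of heme synthesis in red cells, there were 381 tags over 4747 bp at 9 dpa and 266 over 4213 bp in uncut hearts (0.32; 0.23 per kb; 0.35 in 10-kb reads). The lowest members were urod, an enzyme of heme synthesis (175 tags at 9 dpa, 171 in uncut hearts; -0.16), and slc25a37, the mitochondrial iron carrier (312 tags at 9 dpa, 299 in uncut hearts; -0.13, but 0.29 per kb).

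The red cell regulators gata1a (164 tags, score 66.0) and gfi1b (197 tags, score 120) had promoter peaks in the 9 dpa list alone, and a locus shared by the globin genes ba1 and ba2 in the uncut list alone (106 tags, score 57.9). The other 4 globin genes with a peak share 2 loci and have near-identical copies among which reads may be split, so their values are uncertain. The locus of hbaa1 and ba1l had 161 tags at 9 dpa and 126 in uncut hearts, and that of si:ch211-5k11.6 and zgc:92880 had 76 tags at 9 dpa and 55 in uncut hearts. Before scaling, the summed tags of the red cell markers cahz, slc4a1a and alas2 were 1006 at 9 dpa and 705 in uncut hearts. Those of the heart muscle markers myl7 and tnnt2a were 131 at 9 dpa and 156 in uncut hearts. Over all shared promoter loci of the lists, the sums were 4158 at 9 dpa and 2989 in uncut hearts for red cell genes. For contractile genes they were 1189 at 9 dpa and 1176 in uncut hearts. The part of blood content in these values was not tested.

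Endothelial genes were mostly below the median at shared promoters. Of 30 listed genes 17 had a promoter peak, 9 in both lists, of which 0 were past 1.5-fold in either direction and 2 were above 0 in tags. The medians were -0.18 in tags, -0.14 in tags per kb and -0.12 in 10-kb reads, and -0.02 in tags with background scaling. The endocardial receptor gene notch1b had 78 tags at 9 dpa and 94 in uncut hearts (-0.47, but -0.03 per kb), and the flow-responsive factor klf2b had 92 tags at 9 dpa and 105 in uncut hearts (-0.39; -0.45 per kb). The highest were flt1, a receptor of vascular endothelial growth factor (68 tags at 9 dpa, 55 in uncut hearts; 0.11, but -0.02 per kb), and stab1, a scavenger receptor (77 tags at 9 dpa, 63 in uncut hearts; 0.09).

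Of the 17 endothelial promoters 6 had a peak in the 9 dpa list alone and 2 in the uncut list alone, where 6.09% and 2.94% of all promoter loci did. In the 9 dpa list alone stood the apelin receptor genes aplnrb (222 tags, score 146) and aplnra (57 tags, score 58.6), the Notch ligand dll4 (108 tags, score 98.3), the angiopoietin receptor tek (58 tags, score 95.3), the adhesion gene pecam1 (34 tags, score 69.3) and the vessel factor fli1b (197 tags, score 101). In the uncut list alone stood its paralog fli1a (128 tags, score 110.0) and egfl7, a secreted vessel factor (87 tags, score 98.9). Away from promoters the list had 8 loci, of which 6 were in the 9 dpa list alone, where 22.4% of all non-promoter loci were, and 1 was shared. Those 6 had 34 to 55 tags and scores of 51.1 to 63.1. They all lay in introns or exons, so the share of all non-promoter loci is not a like one. Of 9 dpa peaks, 60.9% of intronic and 63.8% of exonic ones were shared, against 73.5% of all non-promoter ones.

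Leukocyte and inflammation genes had medians of 0.19 in tags, 0.09 in tags per kb and 0.13 in 10-kb reads. Of 33 listed genes 11 had a promoter peak, 10 in both lists, and 0 were past 1.5-fold in either direction. The highest were nfkb2, a subunit of NF-κB (152 tags at 9 dpa, 103 in uncut hearts; 0.37), and stat3, a transducer of cytokine signals (225 tags at 9 dpa, 153 in uncut hearts; 0.36, but -0.15 per kb). The promoter locus shared by cebpa, a myeloid factor, and cebpg, whose start site lies nearer its middle, was the highest of the list per kb, with 251 tags over 2126 bp at 9 dpa and 177 over 2282 bp in uncut hearts (0.49 per kb; 0.37 in 10-kb reads). At the low end were rela, another NF-κB subunit (208 tags at 9 dpa, 210 in uncut hearts; -0.21), and socs3a, an inhibitor of cytokine signals (85 tags at 9 dpa, 82 in uncut hearts; -0.14). The chemokine receptor gene cxcr4b had a 9 dpa peak alone (63 tags, score 54.1).

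Matrix genes were close to the median, with -0.08 in tags, which is 0.08 with background scaling, and 0.01 in 10-kb reads. Of 29 listed genes 13 had a promoter peak, 9 in both lists, and 0 were past 1.5-fold in either direction. The crosslinking enzyme gene loxl2b had 68 tags at 9 dpa and 43 in uncut hearts (0.47, -0.11 to 1.05). The collagen gene col1a1a had 79 tags at 9 dpa and 62 in uncut hearts (0.15), while its paralog col1a1b had 69 tags at 9 dpa and 72 in uncut hearts (-0.26), and col5a2a had 88 tags at 9 dpa and 89 in uncut hearts (-0.21). The fibronectin gene fn1b (51 tags), sparc (77 tags), the crosslinking enzyme gene lox (57 tags) and the protease inhibitor gene timp2b (53 tags) had a promoter peak in the 9 dpa list alone, 4 of 13.

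Of 10 epicardial genes 3 had a promoter peak. The gene crip1 had 158 tags at 9 dpa and 76 in uncut hearts (0.86; 0.39 per kb), the growth factor mdka had 81 tags at 9 dpa and 66 in uncut hearts (0.10), and aldh1a2, the enzyme of retinoic acid synthesis, had a peak in the 9 dpa list alone (76 tags, score 77.0).

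Among growth factor and Notch genes 22 of 36 had a promoter peak, 15 in both lists, of which 1 was past 1.5-fold higher and 0 lower. It was igf2b, an insulin-like growth factor, with 157 tags over 2966 bp at 9 dpa and 48 over 872 bp in uncut hearts (1.51, 1.04 to 2.01). Its density ratio was -0.18, and the 10-kb reads were 250 at 9 dpa and 216 in uncut hearts (0.12). The TGF-β transducer smad3a had 244 tags at 9 dpa and 143 in uncut hearts (0.57; 0.26 in 10-kb reads). The lowest were her9, a hairy-related repressor (148 tags at 9 dpa, 167 in uncut hearts; -0.37), and the lymphatic growth factor vegfc (56 tags at 9 dpa, 60 in uncut hearts; -0.30). The receptor genes fgfr1b (57 tags) and fgfr4 (74 tags), the ligand genes jag1a (45 tags) and fgf17 (51 tags), and dkk3 (50 tags) had 9 dpa peaks alone, and the receptor genes fgfr1a (41 tags) and notch3 (69 tags) had uncut peaks alone.

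Of 38 DNA replication and mitosis genes 22 had a promoter peak, 6 of them in the 9 dpa list alone and 1 in the uncut list alone, where 6.09% and 2.94% of all promoter loci did. The 6 were the licensing genes mcm5 (57 tags) and cdc6 (55 tags), the mitotic genes ccna2 (61 tags), cdk1 (52 tags) and birc5a (84 tags), and the factor foxm1 (58 tags), with scores of 52.1 to 151, and 5 of the 6 also had a peak at 6 dpa, as did 69.1% of all 9 dpa promoter peaks alone. The 1 in the uncut list alone was the mitotic kinase gene aurka (65 tags, score 94.2), which had a peak at 6 dpa too.

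Over the 15 shared promoters of this list 1 was past 1.5-fold higher and 0 lower, with medians of 0.16 in tags and 0.01 in 10-kb reads. It was ccnd1, the gene of cyclin D1, with 211 tags over 3543 bp at 9 dpa and 71 over 1216 bp in uncut hearts (1.38; -0.09 per kb; 0.18 in 10-kb reads). The proliferation marker mki67 had 50 tags at 9 dpa and 30 in uncut hearts (0.54, -0.14 to 1.24). The lowest were rrm2, a subunit of ribonucleotide reductase (28 tags at 9 dpa, 29 in uncut hearts; -0.25), and the cyclin gene ccnb3 (57 tags at 9 dpa, 59 in uncut hearts; -0.25).

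Immediate early genes were centred on the median. Of 31 listed genes 26 had a promoter peak, 23 in both lists, of which 2 were past 1.5-fold higher and 0 lower, with a median of 0.00 in tags, which is 0.16 with background scaling. The AP-1 gene junba had 248 tags over 3786 bp at 9 dpa and 127 over 2334 bp in uncut hearts (0.77; 0.15 per kb; -0.03 in 10-kb reads), and ier5l had 178 tags at 9 dpa and 91 in uncut hearts (0.77; 0.50 per kb; 0.24 in 10-kb reads). The AP-1 gene fos had 97 tags at 9 dpa and 117 in uncut hearts (-0.47; -0.06 in 10-kb reads), and the nuclear receptor gene nr4a1 had 61 tags at 9 dpa and 73 in uncut hearts (-0.46; -0.55 per kb). The zinc finger factor egr1 (59 tags) and the phosphatase gene dusp2 (42 tags) had 9 dpa peaks alone, and the AP-1 gene fosb (98 tags) an uncut peak alone.

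Of 35 hypoxia, heat shock and stress genes 25 had a promoter peak, 24 in both lists, of which 2 were past 1.5-fold higher and 1 lower. The median was -0.04 in tags, which is 0.12 with background scaling. The oxygen sensor gene egln3 had 285 tags at 9 dpa and 152 in uncut hearts (0.71; 0.42 in 10-kb reads), and bnip3lb, a gene of mitophagy, had 334 tags at 9 dpa and 184 in uncut hearts (0.66; 0.34 in 10-kb reads). The inducible chaperone gene hsp70l had 183 tags at 9 dpa and 260 in uncut hearts (-0.70; -0.39 per kb; -0.38 in 10-kb reads), and the small heat shock gene hspb1 had 64 tags at 9 dpa and 81 in uncut hearts (-0.54). Other chaperone genes, named after their values were seen, had ratios in 10-kb reads of -0.34 at hsp90ab1, -0.31 at dnajb1b, -0.27 at hspa5 and -0.22 at hspa8, while hsp90aa1.2 had 0.16. The stress regulator gene ddit4 had a 9 dpa peak alone (137 tags, score 149).

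Genes of the enzymes and readers of H3K9 stayed near the median. Of 34 listed genes 22 had a promoter peak, 20 in both lists, of which 0 were past 1.5-fold in either direction, with medians of 0.07 in tags and 0.03 in 10-kb reads. The heterochromatin protein gene cbx1b had 96 tags at 9 dpa and 59 in uncut hearts (0.51). The paralogous H3K9 methyltransferase genes lay at opposite ends, with 130 tags at 9 dpa and 80 in uncut hearts at ehmt1b (0.50; 0.46 per kb), and 95 tags at 9 dpa and 123 in uncut hearts at ehmt1a (-0.57; -0.30 per kb). The deacetylase gene hdac1 had 111 tags at 9 dpa and 123 in uncut hearts (-0.34; -0.24 in 10-kb reads). The deacetylase gene hdac9b (141 tags) and uhrf1 (88 tags), a reader of methylated chromatin, had 9 dpa peaks alone.

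**Figure D4:**
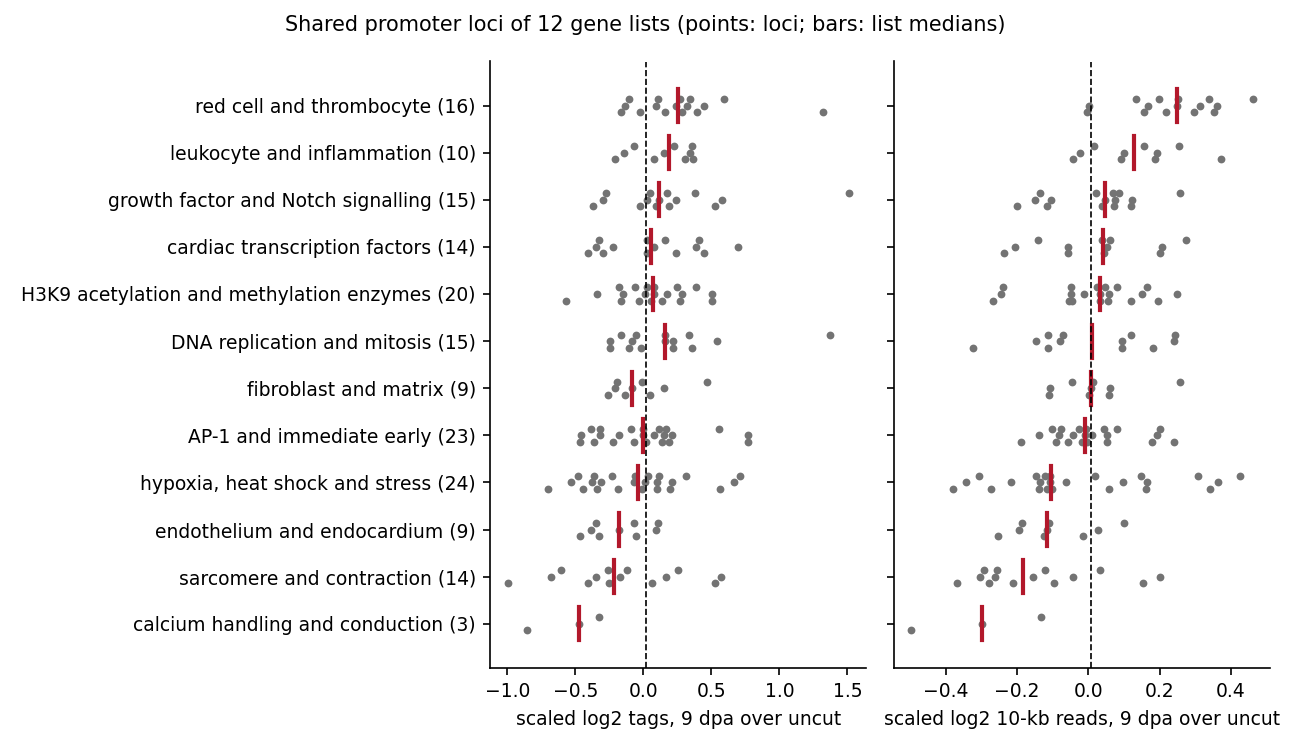
Scaled log2 ratio of tags (left) and of 10-kb reads (right), 9 dpa over uncut, at the shared promoter loci of the gene lists; points are loci, bars the list medians, the dashed line the median of all promoter loci, and the number of loci stands beside each name. In 10-kb reads the red cell list has a median of 0.25, the calcium list -0.30 and the sarcomere list -0.18.

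Loci with a peak in 1 list alone were mostly of low score. A score of 100 was reached by 76 of 501 promoter loci of the 9 dpa list (15.2%) and 22 of 242 of the uncut list (9.09%), and by 209 of 2444 non-promoter loci of the 9 dpa list (8.55%) and 135 of 1726 of the uncut list (7.82%). Many tags did not mean a high score. With at least 200 tags there were 9 such promoter loci at 9 dpa, 6 of them with a score under 100, and 5 in uncut hearts, 4 of them with a score under 100, while of 1376 shared loci with at least 200 tags in both lists 72 had a score under 100 in a list. A peak missing from a list is one below the lowest score and not a measured 0.

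The promoter loci of the 9 dpa list alone with the most tags were wide. The locus of anp32b, of a family of acidic histone-binding proteins (chromosome 1, 25968684 to 25976724), had 961 tags over 8041 bp and a score of 57.7. That of meis1b, whose mouse counterpart is known to restrain division of heart muscle cells (chromosome 13, 5437019 to 5444330), had 650 tags over 7312 bp and a score of 50.2, close to the lowest of the list. Higher scores were reached by atp1b1a, a subunit of the sodium pump (565 tags, score 180), and igfbp1a, a binding protein of insulin-like growth factors (266 tags, score 179). The others were tgif1, a repressor of TGF-β signalling (282 tags, score 94.7), and the microRNA gene mir101a (271 tags, score 83.2). All of these but meis1b also had a peak at 6 dpa.

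The promoter loci of the uncut list alone with the most tags were nt5dc2 (417 tags, score 56.3), zgc:113090 (367 tags, score 50.9), gbp, an inhibitor of glycogen synthase kinase 3 (366 tags, score 90.7), mb, the gene of myoglobin (261 tags, score 115), sall1a, a spalt-type factor (215 tags, score 97.6), and mapkapk2a, a stress kinase (199 tags, score 66.8). Of these, mb reached a score of 100. The loci of mb and gbp had a peak at 6 dpa, with 64 and 378 tags, and the other 4 had none.

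Inside genes, the 9 dpa list alone had peaks in nlk2, a Nemo-like kinase (339 tags, score 105), cerkl, a ceramide kinase-like gene (206 tags, score 59.0), ncam1a, a cell adhesion molecule (174 tags, score 84.3), and pik3r1, a regulatory subunit of phosphatidylinositol 3-kinase (166 tags, score 73.9). The uncut list alone had peaks in capn3a, a muscle calpain (641 tags, score 277), get4 (205 tags, score 58.0), foxo3b, a forkhead factor (203 tags, score 56.4), and cap2, an actin regulator (161 tags, score 51.3). Of these, nlk2 and capn3a reached a score of 100. The capn3a locus had 859 tags at 6 dpa and overlapped an H3K9me3 peak at 9 dpa and none in uncut hearts. Given the lower background of the uncut H3K9me3 library, this is no measured gain.

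The non-promoter loci with the most tags in 1 list alone mostly had no gene in the authors' annotation and were mostly in the uncut list. With at least 400 tags there were 2 at 9 dpa, with 455 and 525 tags and scores under 100, and 18 in uncut hearts, with 425 to 4592 tags, of which 17 were unannotated and 13 reached a score of 100. These loci were singled out after their values were seen. Whether 9 dpa reads lie at the uncut loci cannot be seen from the peak lists. The first lay on chromosome 13 (15363439 to 15372360), with 4592 tags over 8922 bp in uncut hearts, a score of 120 and 4565 tags at 6 dpa. The 10-kb window it was scored against held 4632 reads, nearly all of them in the peak, so many tags gave a modest score. The highest score, 757, was that of a locus on chromosome 10 (22900914 to 22904129), with 951 tags in uncut hearts, 1083 tags at 6 dpa and an H3K9me3 peak at 9 dpa and none in uncut hearts. Of the 18 uncut loci 9 had a peak at 6 dpa, 5 overlapped an H3K9me3 peak at 9 dpa and 2 one in uncut hearts. The uncut H3K9me3 library had the lower background, so its H3K9me3 peaks are not set against those of 9 dpa on like terms. The nearest 9 dpa H3K9ac peak lay a median of 10464 bp away, and 230 bp at the closest.

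**Figure D5:**
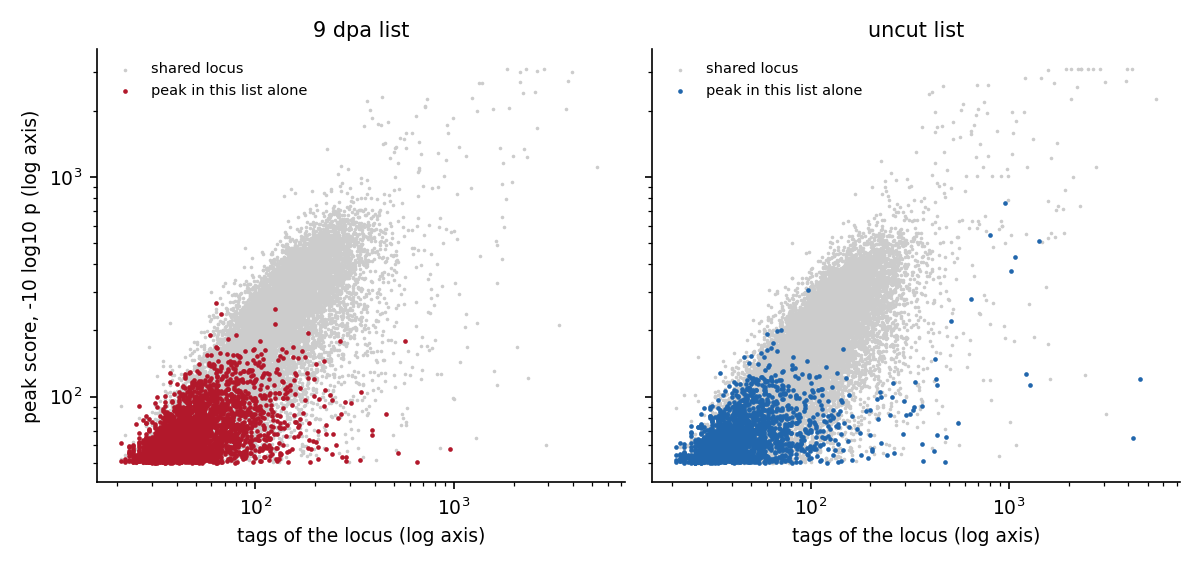
Score (10 times the negative log10 of the authors' p, log axis) against tags (log axis) for loci of the 9 dpa list (left) and the uncut list (right); grey points are shared loci and coloured points loci with a peak in that list alone. Most coloured points lie below a score of 100, also where tags are many, as at anp32b with 961 tags and a score of 57.7. The uncut list alone has points beyond 1000 tags, up to 4592, and the 9 dpa list alone has none.

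The H3K9ac list of 6 dpa, which had no part in the overlap, held a peak at 69.1% of the 9 dpa promoter peaks alone (64.9 to 73.0) and at 62.8% of the uncut promoter peaks alone (56.6 to 68.7). It held a peak at 41.1% of the 9 dpa non-promoter peaks alone (39.2 to 43.1) and at 32.6% of the uncut non-promoter peaks alone (30.4 to 34.8). Of shared peaks at 9 dpa it held 98.1% at promoters and 86.7% elsewhere. H3K9me3 peaks of 9 dpa overlapped 18.6% of the unpaired (17.1 to 20.2) and 23.2% of the paired (22.2 to 24.2) non-promoter H3K9ac peaks of 9 dpa.

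Of the widest promoter peaks, those of 5 kb or more, 38 were at 9 dpa and 21 in uncut hearts, and 36 of the 38 at 9 dpa and 20 of the 21 in uncut hearts overlapped a peak of the other list. The widest shared locus lay at anp32a, of the same family as anp32b, with 1075 tags over 7498 bp at 9 dpa and 816 over 7550 bp in uncut hearts (0.20 in tags; 0.29 in 10-kb reads). Next came bcl6a, a repressor known in immune cells, with 1151 tags over 6755 bp at 9 dpa and 940 over 6624 bp in uncut hearts (0.10). The heart and fin factor hand2 had 577 tags over 6405 bp at 9 dpa and 476 over 6807 bp in uncut hearts (0.08; 0.27 in 10-kb reads). The corepressor gene irf2bp2a had 687 tags over 6056 bp at 9 dpa and 479 over 5843 bp in uncut hearts (0.32; 0.42 in 10-kb reads). Of the 8 widest shared loci 6 were above 0 in tags, among them arrdc2 (0.35) and zbtb20 (0.16). Below 0 were zgc:113276, with 1748 tags at 9 dpa and 1878 in uncut hearts (-0.30; -0.19 in 10-kb reads), and setd1ba, a gene of an H3K4 methyltransferase, with 797 tags at 9 dpa and 769 in uncut hearts (-0.14, which is above 0 with background scaling; -0.07 in 10-kb reads).

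Along the genome, the long arm of chromosome 4, known in zebrafish for its heterochromatin and taken here from 28 Mb on, had the lowest ratios. Its 541 shared loci had median scaled ratios of -0.16 in tags, -0.11 in tags per kb and, over 348 of them, -0.09 in 10-kb reads. Of the 541, 12.9% were past 1.5-fold lower, against 3.88% of the 13370 loci off chromosome 4. Background scaling adds 0.16 to every scaled tag ratio, so with it the tag median of the arm lay close to the library background. The rest of chromosome 4 had a median of -0.01 in tags over 321 loci, and the medians of the other chromosomes ran between -0.02 and 0.03. Of the loci of the arm 494 lay outside promoters, and 13.4% of these were past 1.5-fold lower. The like share was 5.77% of the 6151 non-promoter loci off chromosome 4. Without the arm, 5.73% of non-promoter loci were past 1.5-fold lower, against 6.29% with it.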

How the data were processed

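Chromatin immunoprecipitation sequencing of zebrafish hearts gave 1 deposited peak list per mark and time. Per the submitters' processing notes, Bowtie2 2.2.5, MACS 1.4.2, DiffBind 1.16.3 and build danRer10 were used; their settings, a control library and read totals are not given in the sources used here. The deposited columns used here are, per the file headers, the tag count (whole reads in a peak, not scaled), the length and the score (10 times the negative log10 of the p-value); the fold enrichment, a ratio the authors computed, was not used.

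From the deposited rows, repeats per annotated feature were dropped, and peaks of the 2 lists were joined into loci by 1 bp overlap (checked with bedtools 2.31.1). Tags, length and tags per kb were compared as log2 ratios minus the median of shared loci (Python 3.11.15, numpy 2.4.6, scipy 1.17.1, pandas 2.3.3, matplotlib 3.10.9). The local density that gives a peak's score under a Poisson law with its tags and length was solved for. It was read as reads in 10 kb. This measure was added after the data were seen and used where both summits lay within 1000 bp. Simulated scores drawn from the same Poisson law tested the solving alone, not whether the deposited peaks were scored that way. Intervals are Wilson for shares, exact for tag ratios and order-statistic for medians, at 95%.

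With 1 library per mark and time, no test, SD over replicates or p was possible. Named were the 8 highest and 8 lowest promoter loci and the 5 highest and 5 lowest other loci with a gene symbol, by the near bound of the tag-ratio interval where tags per kb had the same sign; the 6 promoter and 4 other loci in 1 list alone with the most tags; and in each gene list the 2 highest and 2 lowest. The members, lists and rules were chosen with earlier results of these data known. Gene symbols, and the placing of non-promoter peaks in introns, exons and flanks, are those of the deposited lists. Promoter sequences and motifs were not analysed here.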

Additional observations from a re-analysis of the deposited data

How the results depend on the processing

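Leaving out a replicate was not possible, and the spread between hearts is unknown. No paired analysis was possible because each mark and time has 1 library and the results come from no test. What depth limits is the small loci, and a peak missing from a list fell below its lowest score, which is not 0 acetylation. The cause of the differences below was not tested.

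Asking for an overlap of 50% of each peak gave shared shares of 81.5% at 9 dpa (promoter 92.5%, non-promoter 72.0%) and 86.4% in uncut hearts (promoter 95.4%, non-promoter 78.1%). A score of at least 100 in both lists gave 85.2% at 9 dpa (90.1%, 78.4%) and 92.3% in uncut hearts (96.1%, 87.0%). A promoter window of 1 kb moved none of the 4 shares it touches beyond their intervals.

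Scaled to the background, loci past 1.5-fold in tags were 514 higher and 72 lower at promoters and 560 higher and 200 lower elsewhere; per kb they were 93 higher and 11 lower at promoters and 66 higher and 46 lower elsewhere. A score of at least 100, which leaves 9965 shared loci, gave 95 higher and 103 lower at promoters and 72 higher and 124 lower elsewhere in tags, and 16 higher and 15 lower at promoters and 9 higher and 47 lower elsewhere per kb. In 10-kb reads in place of tags per kb they were 1 higher and 2 lower at promoters and 4 higher and 4 lower elsewhere. Reads outside the peak dilute differences in this window, so its counts are no like-for-like check. Before scaling, the medians with a score of at least 100 were 0.20 in tags, 0.0542 in length and 0.14 per kb, and the median of 10-kb reads was 0.0886. Loci with exactly 1 peak in each list kept all 8 counts within 1.5 times.

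Of 52 values of the ranked loci, 51 kept their sign with background scaling, and the density ratio of and3 did not (0.0509). The list median of the cardiac transcription factors was -0.30 with a score of at least 100, against 0.05 with all loci.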

Other observations

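Genes of the circadian clock, a list chosen after values of some of them had been seen, had 22 shared promoter loci. In tags 16 were below 0 and 6 above 0, where 46.4% of all promoter loci were below and 53.5% above. Past 1.5-fold in tags were 1 higher and 3 lower, where 2.66% of all promoter loci were higher and 2.36% lower. With background scaling the counts past 1.5-fold were 1 higher (bhlhe40) and 1 lower (nr1d1). The lower loci were per1b, with 320 tags at 9 dpa and 448 in uncut hearts (scaled log2 ratio -0.68; -0.39 in 10-kb reads), nr1d1, with 106 tags at 9 dpa and 177 in uncut hearts (-0.94; -0.28), and dbpa, with 200 tags at 9 dpa and 272 in uncut hearts (-0.64; -0.22). Related genes were closer to 0 in tags, with -0.39 at per3, -0.41 at nr1d2b, -0.25 at nr1d2a, -0.05 at nr1d4a, -0.19 at cry3, -0.05 at cry4, -0.27 at tefb, 0.14 at tefa, -0.23 at dbpb and -0.01 at hlfa. Of the positive arm, arntl1a had 0.02, arntl2 -0.15 and clockb -0.27. With background scaling arntl2, nr1d4a, cry4, hlfa and the kinase genes csnk1db and csnk1e moved from below 0 to 0.01 to 0.15. The others below 0 stayed below it. On the higher side bhlhe40, a clock repressor, had 374 tags at 9 dpa and 188 in uncut hearts (0.80), but -0.45 per kb and 0.16 in 10-kb reads. The time of day of collection is not given in the sources used here. With 1 library a side, a difference in it cannot be told apart from that between 9 dpa and uncut hearts.

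At the mitotic kinase gene aurkb, a flanking locus had 58 tags at 9 dpa and 142 in uncut hearts (-1.49), while its ratio was 0.15 per kb and -0.18 in 10-kb reads. A locus that the authors' annotation places in an intron of tnnc1a lay 553898 bp from the start site of that gene. Its tie to tnnc1a is thus uncertain. It had 458 tags at 9 dpa and 225 in uncut hearts (0.83), with -0.09 per kb and 0.13 in 10-kb reads.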
